A study of Mus musculus with 2 samples.

Results

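Among the spots of 2 mouse cerebellar tumor sections, those with the most *Spp1* and *Gpnmb* but with *Arg1* below a set limit were described. A spot is a small round patch of tissue whose transcripts share 1 barcode, so it can hold several cells. Spots entered when they held at least 2000 UMIs (counted transcript molecules) and under 500 CPM of *Arg1* (UMIs per 1000000 of the spot's total), and the top 5% of each section by the sum of *Spp1* and *Gpnmb* CPM were chosen. This gave 320 chosen spots, 146 of 2923 eligible spots in section 1 and 174 of 3480 in section 2, out of 7423 spots under tissue. They were set beside 1175 neighbor spots, which lie within 3 steps on the hexagonal grid and also have *Arg1* under 500 CPM, and beside 663 *Arg1*-high spots (*Arg1* of 500 CPM or more). In the mm10 assembly (GRCm38.p6), *Spp1* lies on chromosome 5 (104435111 to 104441053), *Gpnmb* on chromosome 6 (49036518 to 49058182) and *Arg1* on chromosome 10 (24915207 to 24927470).

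Both sections belong to 1 condition without treatment, and the zones within each section are compared. The hosts were C57BL/6J mice 5 months old, whose cerebellum had been injected with HP mammary tumor organoids. HP organoids carry HER2 V777L, a human transgene under an actin promoter behind a Lox-STOP-Lox element, and PIK3CA H1047R, and the primary tumors were started with a Cre-expressing adenovirus. The titles give the organoids as HP-F1 +cre for section 1 and HP-B6 +cre for section 2, while the labels call the line B6-HP in both. The study treats the sections as biological replicates, but no label says whether they came from separate animals. The main fit removed each section's own level, so its p-values rest on how far zone differences disagree between these 2 sections. Organoid line, host and section cannot be told apart. All zones come from these tumor-bearing sections, and no tumor-free cerebellum was analysed here.

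*Spp1* encodes osteopontin, a secreted phosphoprotein that binds integrins and CD44, and *Gpnmb* encodes a glycoprotein of late endosomes and lysosomes. Both are known for macrophages that take up and digest lipid-rich debris, together with genes of lipid handling (*Trem2*, *Apoe*, *Lpl*, *Fabp5*, *Plin2*), lysosomal proteases (*Ctsb*, *Ctsd*) and the macrophage elastase *Mmp12*. In the brain, microglia and macrophages around lesions and tumors can take on such a program, while *Arg1*, which encodes arginase, marks another, partly overlapping state. *Spp1* is also made by cells other than macrophages, among them osteoblasts, some fibroblasts and some neurons.

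The sections differ as tissues, which bears on all that follows. Section 1 held 63986887 UMIs and section 2 held 71878333, with medians of 9733.5 and 12390 UMIs per spot. The median chosen spot held 41039.5 UMIs in section 1 and 14946.5 in section 2, close to the neighbor spots of the same section (48621 and 15800). The libraries summed by zone ranged from 3004467 to 16853577 UMIs. Fibroblast markers summed to 48984 CPM in the chosen spots of section 1 and 1106 in those of section 2, while tumor epithelium markers summed to 103 and 3353. The tissue around the chosen spots of section 1 was thus rich in collagen transcripts and almost without epithelial keratins, and that of section 2 held tumor epithelium and brain tissue. The sections shared 3096 barcodes, which come from the common barcode list of the array and do not mark shared cells.

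Levels summed over whole zones are given below as TMM-scaled CPM. Levels of single spots, patches, distances and kinds of chosen spots are CPM without that scaling. A spot with a higher level may hold more macrophages or more of the transcript per macrophage, which cannot be told apart.

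By construction the chosen spots had high *Spp1* and *Gpnmb*, and these values are a description. In section 1, *Spp1* in single chosen spots ran from 6246 CPM over a median of 9086 to 24744. In section 2 it ran from 3348 over 6131 to 24349. *Gpnmb* ran from 0 over 42.2 to 6046 CPM in section 1 and from 0 over 526 to 5677 in section 2, so some chosen spots entered through *Spp1* alone. The last spot chosen and the first left out had sums of 8280 and 8276 CPM in section 1 and 4681 and 4679 in section 2, so the limit itself was lower in section 2. Summed over the zone, *Spp1* stood at 9355 CPM in chosen spots, 4944 in neighbor spots and 9952 in *Arg1*-high spots of section 1, and at 6714, 1599.8 and 9896 in section 2. *Gpnmb* stood at 1159.6, 517 and 1775 CPM in section 1 and at 918, 166 and 1538 in section 2. The chosen spots therefore do not hold the highest levels of the pair. Without TMM scaling, *Arg1* was 157 CPM in chosen and 78.9 in neighbor spots of section 1. In section 2 it was 240 and 125. The chosen spots thus lay under the *Arg1* limit but above their neighbors in *Arg1*. Its part in the differences from the neighbors was not tested. Of the *Arg1*-high spots, 81.3% in section 1 (196 of 241, exact binomial 95% interval 75.8 to 86.0, counting error only) and 75.1% in section 2 (317 of 422, 70.7 to 79.2) reached the sum of the lowest chosen spot.

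*Gpnmb* divided the chosen spots of section 1 and not those of section 2. In section 1, 75 of the 146 chosen spots had *Gpnmb* under 50 CPM, 71 had 400 CPM or more and 0 lay between. In section 2 the same bins held 13, 98 and 63 spots. *Gpnmb* was at 0 UMIs in 66 chosen spots of section 1 (45.2%, exact binomial 95% interval 37.0 to 53.6) and in 13 of section 2 (7.47%, 4.04 to 12.4). Across chosen spots, the rank correlation of *Spp1* with *Gpnmb* was -0.26 in section 1 (146 spots) and 0.18 in section 2 (174 spots), as a description within a set selected on their sum. The chosen spots of section 1 are thus described as 2 kinds, with *Gpnmb* under 100 CPM or at least 100 CPM, and this limit was set after seeing the gap.

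**Figure D1:**
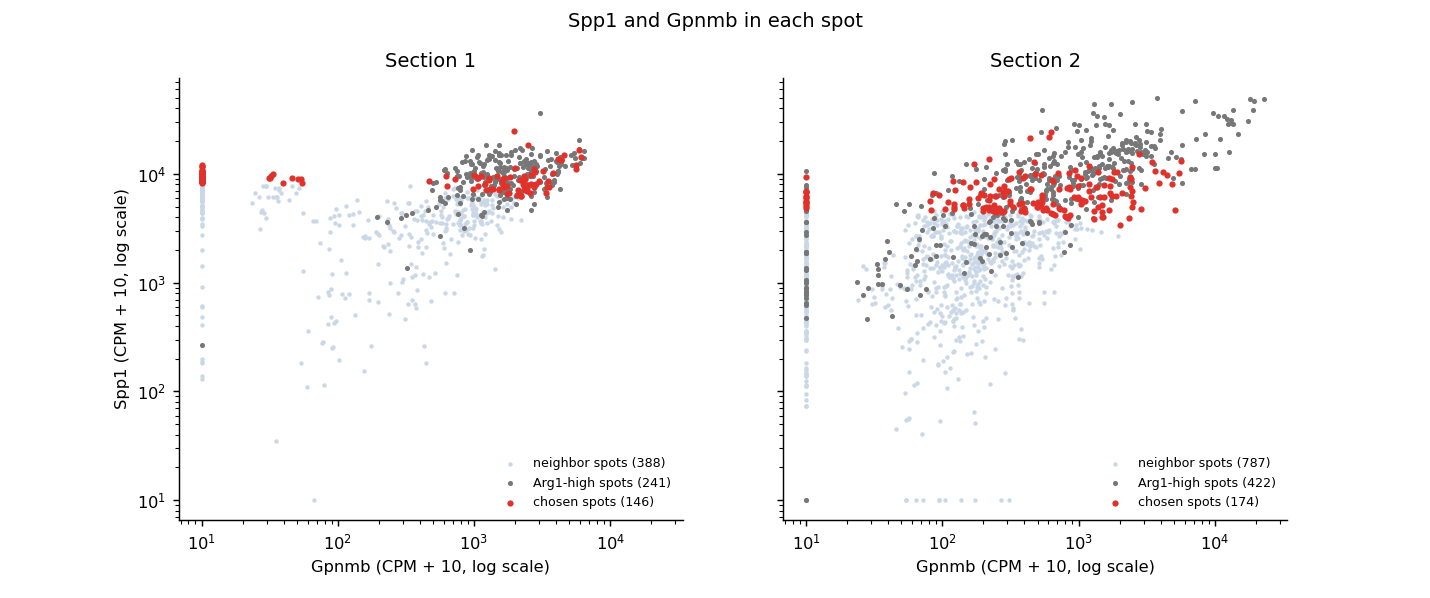
*Spp1* against *Gpnmb* in single spots of each section, both in CPM plus 10 on log axes, with chosen spots in red, neighbor spots in light blue and *Arg1*-high spots in grey. In section 1 the chosen spots fall into 75 spots with little or no *Gpnmb* and 71 spots at 400 CPM or more, while in section 2 they spread without a gap above the 13 spots at 0.

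Many chosen spots lay along the *Arg1*-high spots, and others lay far from them. Within 3 steps of an *Arg1*-high spot were 67 of 146 chosen spots in section 1 and 142 of 174 in section 2, and the farthest lay 21 and 39 steps away. In section 1, 53 of 146 chosen spots (36.3%, exact binomial 95% interval 28.5 to 44.7) touched an *Arg1*-high spot, against 3.75% of the other eligible spots. In section 2, 103 of 174 (59.2%, 51.5 to 66.6) did so, against 8.59%. Touching spots share tissue, so these intervals cover counting error only, and no test across spots was made.

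Chosen spots also touched each other, 135 of 146 in section 1 and 151 of 174 in section 2, and formed 20 and 47 patches. The largest patch of section 1 held 74 spots and lay apart, with a median of 17 steps and at least 14 steps to the nearest *Arg1*-high spot. All but 1 of the 75 chosen spots with little *Gpnmb* lay in this patch, and none of the 75 came closer than 12 steps to an *Arg1*-high spot. The 71 others lay a median of 1 step from one, as did the 155 chosen spots of section 2 with at least 100 CPM of *Gpnmb*. The 19 spots of section 2 below that level lay a median of 6 steps away.

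**Figure D2:**
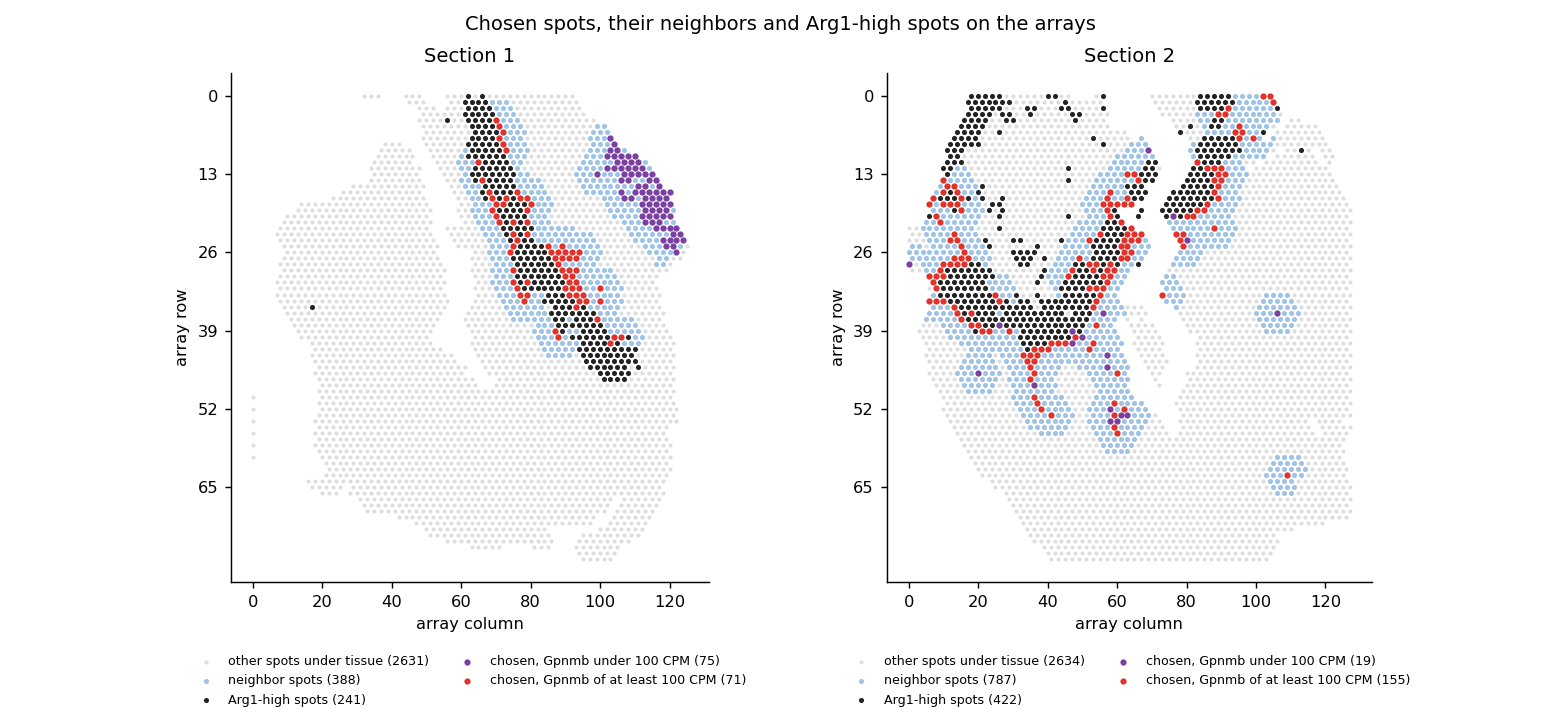
Positions of spots on the array (array column and array row) in both sections, with chosen spots in purple (*Gpnmb* under 100 CPM) or red (at least 100 CPM), neighbor spots in light blue, *Arg1*-high spots in black and other tissue spots in grey. Most red spots lie at the *Arg1*-high bands of both sections, with some farther out, and the 75 purple spots of section 1 sit at least 12 steps from them, 74 of them in 1 patch.

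The 2 kinds of chosen spots in section 1 had *Spp1* of the same order but differed in lipid, lysosomal and matrix genes. All values here come from 1 section, so no test was made, and the intervals are exact Poisson 95% intervals for counting error only. *Spp1* was 9431 CPM (9316 to 9547) in the *Gpnmb*-poor kind and 8392 (8287 to 8498) in the other. *Gpnmb* was 4.05 CPM (11 UMIs, 2.02 to 7.24) and 2129 (6192 UMIs, 2076 to 2183). Because *Gpnmb* set the kinds, that difference is not a result, and the other genes were described spot by spot.

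*Cd68*, a glycoprotein of macrophage lysosomes, had a lowest, median and highest value of 0, 251 and 625 CPM in the 75 *Gpnmb*-poor spots and of 592, 1394 and 6360 in the 71 others. The ranges met only between 592 and 625. *Fabp5*, a fatty acid binding protein, ran from 0 over 24.8 to 266 CPM and from 272 over 1245 to 2996. *Lgals3*, which encodes galectin-3, ran from 41.3 over 281 to 587 CPM and from 1390.0 over 3047 to 4721. Neither *Fabp5* nor *Lgals3* overlapped between the kinds. The share of all genes without overlap is not given, here and below. The genes named are thus not shown to stand out among all genes. Because *Gpnmb* set the kinds and nearly all *Gpnmb*-poor spots lay in the same patch, such gaps are a description.

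The lysosomal proteases separated the kinds as well. *Ctsd*, cathepsin D, ran from 176 over 502 to 929 CPM in *Gpnmb*-poor spots and from 1853 over 4121 to 20189 in the others. *Ctsb*, cathepsin B, ran from 863 over 2078 to 3028 CPM and from 4217 over 10365 to 16252. The list of 26 lipid-associated macrophage genes, which holds neither *Spp1* nor *Gpnmb*, summed to 5893, 8392 and 10679 CPM (lowest, median, highest) against 17677, 32585 and 64899, again without overlap.

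General macrophage genes differed less, and some were higher in the *Gpnmb*-poor kind. *C1qa*, a subunit of complement C1q made by macrophages and microglia, was 2249 CPM over the *Gpnmb*-poor spots and 2495 over the others. *Csf1r*, the receptor for CSF1 and IL34, was 496 and 255 CPM, and the mannose receptor *Mrc1* was 292 (272 to 313) and 25.8 (20.3 to 32.3). The 18 macrophage markers summed to 8129 and 10944 CPM.

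The surrounding tissue differed between the kinds too, and *Dcn* and *Cilp* were picked for it after their values were seen. *Dcn*, which encodes the fibroblast proteoglycan decorin, ran from 1903 to 4229 CPM in *Gpnmb*-poor spots and from 0 to 912 in the others, without overlap. *Cilp*, a cartilage and fibroblast matrix gene, was 634 and 2.75 CPM. *H2-Aa*, an MHC class II chain, was 7039 and 2612 CPM, and *Igkc*, the immunoglobulin kappa constant region, 1036 and 29.9. *Gfap*, the astrocyte filament, was 14.0 and 1107 CPM. The *Gpnmb*-poor patch was therefore richer in decorin, MHC class II and immunoglobulin transcripts, and the other kind held astrocyte transcripts.

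Set beside neighbor spots near that patch alone (108 spots), the *Gpnmb*-poor chosen spots had macrophage and lipid sums close to or below those of the neighbors. *Spp1* was 9431 CPM in them and 6251 in these neighbors. The lipid-associated list summed to 8460 and 8584 CPM, the macrophage list to 8129 and 8799, and *Cd68* to 281 and 353. Of 8439 genes at 20 CPM or more in either zone, 5 were over 1 log2 unit higher and 26 lower. Read off after their values were seen, the 5 were *Igkv8-27*, *F13a1*, *Rgs5*, *Cd36* and *Crispld2*. *F13a1* was 35.7 against 10.5 CPM, and *Cd36*, of the lipid-associated list, 43.0 against 20.3. Markers of B and plasma cells were lower, at 1537 against 2862 CPM, as were osteoclast-like markers, at 811 against 1795, and *Gfap*, at 14.0 against 124. So in this patch macrophage markers were present, but neither the macrophage list nor the lipid-associated list was higher than in the tissue around it. These spots are called here by *Spp1* alone and are not set apart as macrophage spots.

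The kind with at least 100 CPM of *Gpnmb* stood out more from its own neighbors (280 spots). *Fabp5* was 1184 CPM in it and 500.2 in the neighbors, *Cd68* 1426 and 773, *Ctsd* 4299 and 2203, and *Mmp12* 175 and 48.4. The lipid-associated list summed to 32263 and 20054 CPM, and the macrophage list to 10944 and 9042. *Arg1*, under 500 CPM by the rule in every spot of both, was 296 and 108 CPM. Among the macrophage markers, *Csf1r* (255 and 319 CPM) and *Mrc1* (25.8 and 60.5) were lower in this kind. Because *Gpnmb* picked these spots, genes that go with it across spots had to follow in part. The largest patch of this kind had 28 spots, and among the patches of 5 or more spots a patch of 5 had the highest levels of 4 genes, with 12485 CPM of *Spp1*, 4307 of *Gpnmb*, 990.4 of *Mmp12* and 5132 of *C1qa*.

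**Figure D3:**
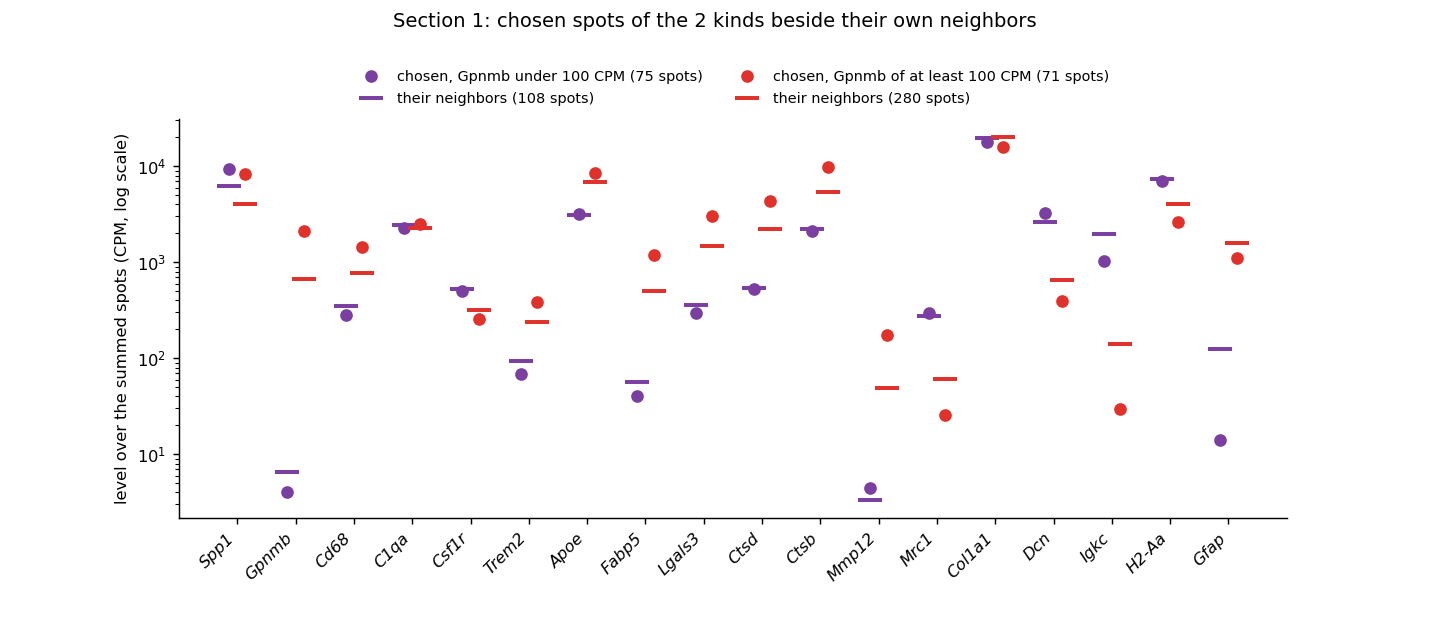
Levels of 18 genes over the summed spots of section 1 in CPM on a log axis, with dots for the 2 kinds of chosen spots and bars for the neighbor spots near each kind alone. Purple dots lie close to purple bars for most genes, above it for *Spp1* and below it for *Gfap* and *Igkc*. Red dots lie above red bars for *Gpnmb*, *Cd68*, *Fabp5*, *Lgals3*, *Ctsd*, *Ctsb* and *Mmp12*, and below them for *Csf1r* and *Mrc1*, among others.

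Section 2 showed a more even picture, with chosen spots in many small patches. Its largest patches held 19, 18, 13 and 12 spots. The 155 spots with at least 100 CPM of *Gpnmb* summed to 7294 CPM of macrophage markers, against 3456 in the 480 neighbor spots near them alone, and to 23668 against 10877 CPM of the lipid-associated list. Single spots varied widely: *Cd68* ran from 0 over 460.1 to 2371 CPM, and *Fabp5* from 0 over 529.5 to 3672.

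The 19 *Gpnmb*-poor spots of section 2 held neuronal transcripts. *Nefl*, the light neurofilament chain, was 2699 CPM in them and 381 in the 155 others. Their macrophage markers summed to 4759 CPM, against 2623 in the 101 neighbor spots near them alone. A patch of 10 chosen spots lay at least 12 steps from any *Arg1*-high spot, with 5094 CPM of *Nefl*, 5819 of *Spp1*, 103 of *Gpnmb* and 2851 of macrophage markers. In the largest patch, by contrast, *Nefl* was 255 CPM, *Spp1* 10014, *Gpnmb* 304 and the macrophage markers 8646. Some chosen spots of section 2 were thus rich in neurofilament transcripts and comparatively low in macrophage markers.

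The macrophage markers were next summed over whole zones. In section 2 the 18 macrophage markers summed to 6941 CPM in chosen spots, 3233 in neighbor spots and 6195 in *Arg1*-high spots. In section 1 they summed to 10082, 9563 and 10355. All 18 markers were detected in the chosen spots when both sections were pooled, although *Lyz2*, lysozyme of myeloid cells, was low at 22.6 and 9.11 CPM. Homeostatic microglia markers summed to 1699 CPM in chosen and 1558 in neighbor spots of section 1 and to 1846 and 993 in section 2. The macrophage sum was thus well over that of the neighbors in section 2, where the homeostatic microglia sum was too. In section 1 it was so for the *Gpnmb*-rich kind, by a smaller margin and with *Csf1r* and *Mrc1* lower. The rule used *Spp1* and *Gpnmb*, and *Gpnmb* set that kind. Both genes are known for macrophages, so these sums cannot check the macrophage label.

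Against neighbor spots, edgeR (quasi-likelihood, blocked by section) called 0 of 18007 genes (0% called) at a Benjamini-Hochberg adjusted p below 0.05. *Spp1*, *Gpnmb* and *Arg1* were kept out of edgeR's adjustment because they defined the zones. DESeq2, a second tool, had them in its adjustment here and against *Arg1*-high spots, and they are not counted among its calls. At an unadjusted p below 0.05 there were 136 higher genes (0.755% of those tested) and 68 lower genes (0.378%), and DESeq2 called 1 gene, *Mmp12*. With 2 sections the fit had 2 residual degrees of freedom, and differences below are given as the values of both sections.

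*Mmp12* had the lowest p of all genes in this comparison. It was 97.6 CPM in chosen and 38.0 in neighbor spots of section 1 and 69.6 and 18.4 in section 2. The log2 difference was 1.35 and 1.89, with a fitted value of 1.64 (SE 0.22, edgeR adjusted p = 0.99997). In DESeq2 the adjusted p was 0.0267. By spots, its median was 22.3 CPM in the chosen spots of section 1 and 0 in those of section 2, where 92 of 174 had no UMI.

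Summed over zones, genes of lipid uptake and storage were higher in the chosen spots of both sections, with a larger difference in section 2. *Lpl*, lipoprotein lipase, was 71.8 CPM in chosen and 37.9 in neighbor spots of section 1 and 107 and 28.5 in section 2 (log2 differences of 0.91 and 1.89). *Fabp5* was 664 and 399 CPM in section 1 and 573 and 197 in section 2 (0.73 and 1.54). *Plin2*, a coat protein of lipid droplets, was 404 and 265 CPM in section 1 and 169 and 81.7 in section 2 (0.61 and 1.05). None of the 3 passed edgeR's adjusted threshold, with unadjusted p of 0.00275, 0.0118 and 0.0148. In single spots of section 1, the median of *Fabp5* was 128 CPM in chosen and 320 in neighbor spots. In section 2 it was 528 and 199. The lipid-associated list had medians of 10301 and 15640 CPM in section 1 and 21104 and 10330 in section 2. So in section 1 the sums and the median spots went opposite ways for both.

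Over the lipid-associated list, 25 members could be tested. In both sections 18 were higher and 0 were lower, where 21.7% of all genes tested were higher and 29.1% lower in both, and 9 had an unadjusted p below 0.05 and a higher level. The median log2 difference of the list was 0.24 in section 1 and 1.22 in section 2, beside -0.02 and -0.03 over all genes tested. Over 1 log2 unit higher in both sections were 3 members, *Fabp4*, *Cd36* and *Mmp12*, where 6 of all 18007 genes (0.0333%) were. *Cd36*, a scavenger receptor for oxidized lipids that was singled out after its values were seen, was 110.1 and 44.6 CPM in section 1 and 23.7 and 3.21 in section 2.

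*Apoe* and *Trem2*, a lipid carrier and a lipid-sensing receptor of macrophages, differed in section 2 more than in section 1. *Apoe* was 6226 CPM in chosen and 6211 in neighbor spots of section 1 and 9123 and 3728 in section 2. *Trem2* was 243 and 210 CPM in section 1 and 276 and 98.9 in section 2. Summed over whole zones, *Apoe* thus stood level in section 1, and in section 2 the zones were apart by 1.29 log2 units. The 2 kinds of section 1 differed here when each was set beside its own neighbors, without TMM scaling. *Apoe* was 8496 against 6911 CPM in the *Gpnmb*-rich kind and 3161 against 3085 in the *Gpnmb*-poor kind. *Trem2* was 384 against 237 and 68.1 against 93.9.

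Lysosomal genes followed the same order. Of 25 members tested, 21 were higher in both sections (21.7% of all genes), 2 of them with an unadjusted p below 0.05, and the median log2 difference was 0.13 and 0.84. *Ctsd* was 2603 CPM in chosen and 1848 in neighbor spots of section 1 and 3309 and 1255 in section 2. *Lipa*, the acid lipase of lysosomes, was 199.7 and 143 CPM in section 1 and 103 and 48.5 in section 2. *Psap*, the precursor of the saposins, was 4360 and 3510.0 CPM in section 1 and 2183 and 1219 in section 2. The MiT/TFE factors, which drive lysosomal genes, summed to 135 CPM in chosen and 159 in neighbor spots of section 1. In section 2 they summed to 124 and 91.1.

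General macrophage markers were close to those of the neighbors in section 1 and higher in section 2. Of 18 markers, 14 were higher in both sections (21.7% of all genes), with median log2 differences of 0.10 and 0.995. *C1qa* was 2499 CPM in chosen and 2455 in neighbor spots of section 1 and 1691 and 775 in section 2. *Csf1r* was 391 and 402 CPM in section 1 and 337 and 202 in section 2. *Tyrobp*, the signaling adaptor of *Trem2*, was 540 and 507 CPM in section 1 and 392 and 158 in section 2. *Cd68* differed most of these (0.40 and 1.75).

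*Hmox1*, heme oxygenase, was 273 CPM in chosen and 187 in neighbor spots of section 1 and 359 and 121 in section 2. The receptors of osteopontin showed smaller differences. *Cd44* was 433 and 415 CPM in section 1 and 494 and 442 in section 2, and *Itgav*, the integrin alpha V chain, was 240.0 and 244 in section 1 and 224 and 168 in section 2. Of 10 osteopontin receptor genes, 5 were higher in both sections (21.7% of all genes) and 0 were lower in both (29.1% of all genes). The ligands of *Csf1r* were near the neighbors' levels, with *Il34* at 67.3 and 69.1 CPM in section 1 and 32.2 and 41.3 in section 2, and *Csf1* at 46.0 and 44.1 and at 21.5 and 18.5.

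Transcripts of cerebellar cortex neurons were lower in the chosen spots of both sections. Of 8 Purkinje cell markers, 7 were lower in both sections (29.1% of all genes), with median log2 differences of -0.80 and -1.61, and of 8 granule neuron markers 7 were lower in both (-0.69 and -0.71). None of either list had an unadjusted p below 0.05 and a lower level. *Car8*, which encodes a carbonic anhydrase-related protein of Purkinje cells, was 7.48 and 21.3 CPM in section 1 and 92.0 and 400.3 in section 2. Among all genes, 12 (0.0666%) were over 1 log2 unit lower in both sections, and at 20 CPM or more in the higher zone these were *Car8*, *Etnppl*, *Pcp4*, *Gng13* and *Reln*, read off after their values were seen.

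Some other cell types stood on opposite sides in the 2 sections, a difference that was not tested. Oligodendrocyte markers were lower in sum in the chosen spots of section 1 (1356 against 2200.0 CPM) and higher in those of section 2 (7347 against 4441). The difference in section 1 was smaller when each kind was set beside its own neighbors, without TMM scaling. There the sums were 148 against 154 CPM in the *Gpnmb*-poor kind and 2357 against 2819 in the other. MHC class II genes were slightly lower in sum in section 1 (20499.5 against 21812 CPM) and higher in section 2 (782 against 447). Their part in the macrophage and lipid differences was not tested. Of the remaining cell type lists, summed in CPM, T cell markers stood at 225 against 298 in section 1 and 40.0 against 24.2 in section 2. B and plasma cell markers stood at 831 against 1064 and at 116 against 101.

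**Figure D4:**
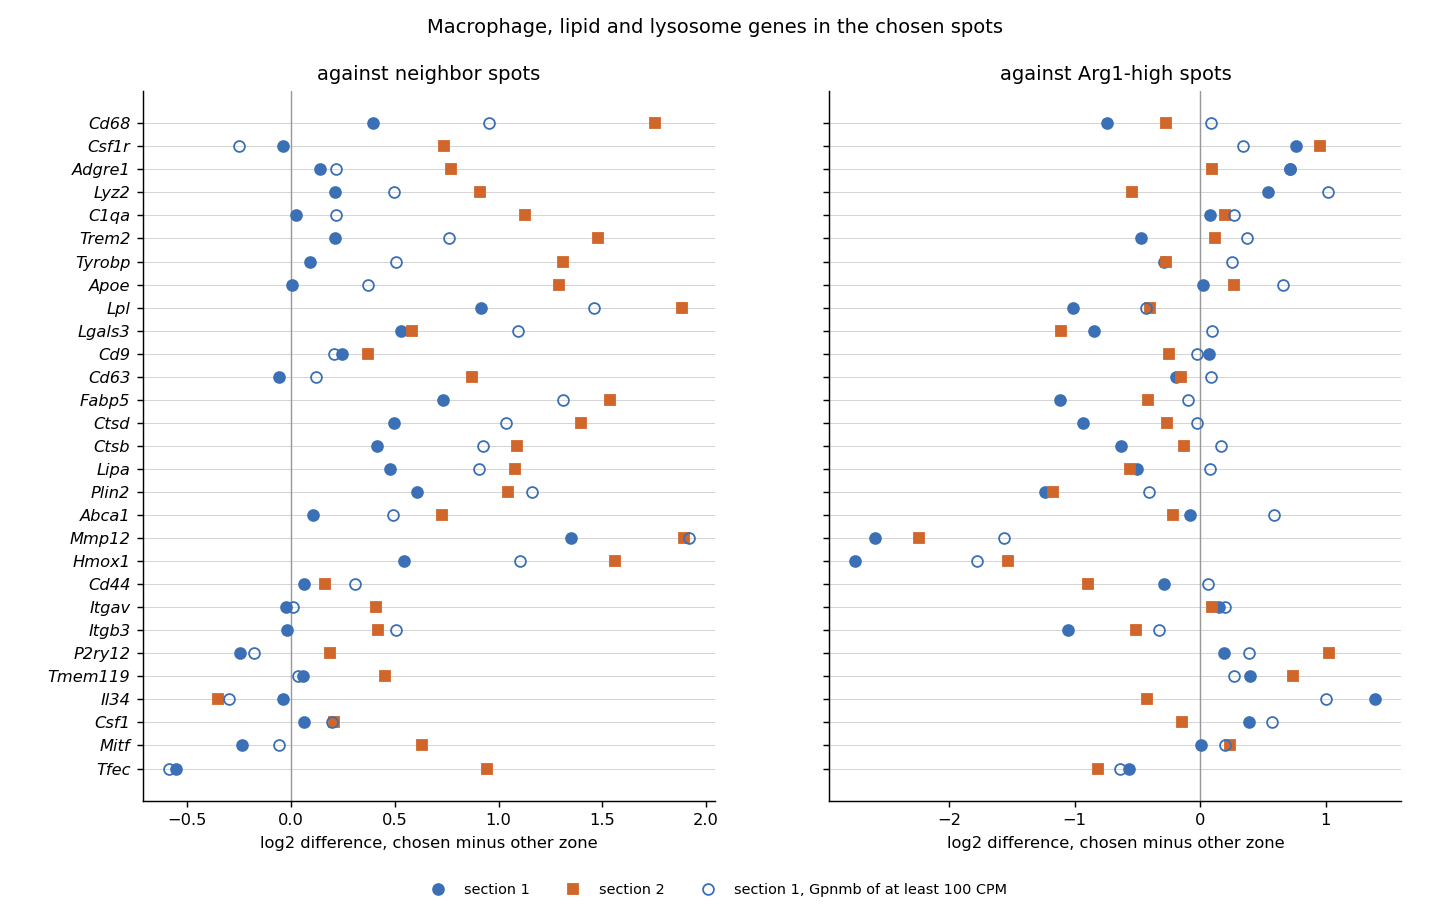
Log2 difference of 29 named genes, from zone levels in TMM-scaled CPM plus 0.5, between chosen spots and neighbor spots (left) or *Arg1*-high spots (right), with 1 point per section and open circles for section 1 without the *Gpnmb*-poor spots. Against neighbors *Mmp12*, *Lpl* and *Fabp5* lie right of 0 in both sections, and against *Arg1*-high spots *Mmp12*, *Hmox1* and *Plin2* lie left of 0 in both.

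Leaving out the chosen spots with *Gpnmb* under 100 CPM, a step added after seeing the gap, brought lipid and lysosomal genes of section 1 closer to section 2, while the median of MHC class II genes went from -0.19 to -0.42 in section 1, farther from section 2 (0.92). edgeR again called 0 genes, here of 17684 tested, with 255 higher (1.44%) and 152 lower (0.86%) at an unadjusted p below 0.05. In section 1 the log2 difference of *Fabp5* went from 0.73 to 1.31, that of *Ctsd* from 0.49 to 1.04, that of *Lgals3* from 0.53 to 1.09 and that of *Hmox1* from 0.54 to 1.102. Of 25 lipid-associated genes, 21 were now higher in both sections (26.0% of all genes), with medians of 0.76 and 1.24, and 9 were over 1 log2 unit higher in both, where 21 of all genes (0.119%) were, beside 58 over 1 log2 unit lower (0.328%). Read off after their values were seen, these 9 were *Fabp5*, *Fabp4*, *Plin2*, *Cd36*, *Apoc2*, *Ctsd*, *Lpl*, *Mmp12* and *Ctsl*. *C1qa* then differed by 0.21 and *Csf1r* by -0.25 in section 1. Since *Gpnmb* chose these spots, genes that go with it across spots had to follow in part.

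The chosen spots were next set against the *Arg1*-high spots, which were taken by *Arg1* with no limit on *Spp1* or *Gpnmb*. edgeR called 0 of 18007 genes (0% called), with 346 higher (1.92%) and 353 lower (1.96%) at an unadjusted p below 0.05. DESeq2 called 26 genes, 8 higher and 18 lower. The zones were split by *Arg1*, so *Arg1* itself (165 against 1084 CPM in section 1, 235 against 1523 in section 2) is only described. Genes that go with *Arg1* across spots had to follow in part, in these counts and in all comparisons with *Arg1*-high spots below.

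Hypoxia genes were lower in the chosen spots than in the *Arg1*-high spots of both sections. Of 12 members tested, 11 were lower in both sections (19.2% of all genes) and 11 had an unadjusted p below 0.05 and a lower level, where 1.96% of all genes did, with median log2 differences of -1.43 and -1.0001. The list summed to 705 against 1634 CPM in section 1 and 999 against 1811 in section 2. Over 1 log2 unit lower in both were *Car9*, *Adm*, *Ankrd37*, *Egln3*, *Ero1l* and *Vegfa*, where 55 of all genes (0.305%) were. Among those read off after their values were seen, *Car9*, a carbonic anhydrase of hypoxic cells, was 12.5 against 43.9 CPM in section 1 and 27.3 against 113 in section 2. *Vegfa*, the vascular growth factor, was 66.0 against 186 and 76.8 against 259. *Slc16a3*, a lactate transporter, was 37.8 against 145 and 43.9 against 161.

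*Mmp12* and *Hmox1* were lower too, but the lists of matrix-degrading and heme genes were not lower in sum in both sections. Metalloproteases and inhibitors summed to 7044 CPM in chosen and 5947 in *Arg1*-high spots of section 1 and to 1701 and 2845 in section 2. Heme and iron genes summed to 7507 and 15077 CPM in section 1 and to 13310 and 11166 in section 2. *Mmp12* was 97.6 CPM in chosen and 591 in *Arg1*-high spots of section 1 and 69.6 and 331 in section 2, a fitted log2 difference of -2.42 (SE 0.23, edgeR adjusted p = 0.72). *Hmox1* was 273 and 1837 CPM in section 1 and 359 and 1038 in section 2, a fitted -2.11 (SE 0.38, edgeR adjusted p = 0.9995). In DESeq2 both passed, with adjusted p of 1.94e-09 and 0.000509. *Mmp12* thus took a middle place in both sections, over the neighbors and under the *Arg1*-high spots.

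Lipid genes were lower by less. Of 25 lipid-associated genes, 16 were lower in both sections (19.2% of all genes) and 2 higher in both (22.6%), with medians of -0.53 and -0.32, and 6 had an unadjusted p below 0.05 and a lower level. *Plin2* was 404 against 951 CPM in section 1 and 169 against 383 in section 2. *Lgals3* was 1779 against 3201 and 767 against 1652. In section 1 the lower level of the list rested on the *Gpnmb*-poor patch: without it the medians were 0.04 and -0.28. There, 10 members were lower in both sections (17.3% of all genes). *Plin2* then differed by -0.41 and -1.13, and *Lgals3* by 0.10 and -1.04. In that setting 207 of all genes were higher (1.17%) and 326 lower (1.84%) at an unadjusted p below 0.05, and 16 were over 1 log2 unit higher (0.0905%) and 103 lower (0.582%) in both sections. The hypoxia list kept medians of -0.995 and -0.95. Of its 12 members, 12 were lower in both sections (17.3% of all genes), 9 of them at an unadjusted p below 0.05.

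*Csf1r*, MHC class II genes and most B and plasma cell genes were higher in the chosen than in the *Arg1*-high spots of both sections, in part through the *Gpnmb*-poor patch. *Csf1r* was 391 against 230 CPM in section 1 and 337 against 173 in section 2 (log2 differences of 0.76 and 0.96, unadjusted p = 0.0193 in edgeR). Without the *Gpnmb*-poor spots it differed by 0.34 and 0.95. Of 12 homeostatic microglia genes, 4 were higher in section 1 and 12 in section 2, and the list summed to 1699 against 1962 CPM in section 1 and to 1846 against 1079 in section 2. Its member *Tmem119* was 117 against 88.8 and 50.1 against 29.8, and *P2ry12*, a purinergic receptor of resting microglia, was 35.0 against 30.5 and 45.5 against 22.1. MHC class II genes were higher for 7 of 7 members in both sections (22.6% of all genes), with medians of 1.87 and 0.37. B and plasma cell genes were higher in both sections for 6 of 8, and *Igkc* was 543 against 31.7 CPM in section 1 and 84.9 against 22.1 in section 2. In section 1 this difference lay in the *Gpnmb*-poor patch: *Igkc* was 1036 CPM in the *Gpnmb*-poor kind, 29.9 in the other kind and 32.2 in *Arg1*-high spots, all without TMM scaling. Over all genes, 42 (0.233%) were over 1 log2 unit higher in both sections.

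Markers of brain tissue differed in this contrast too, in opposite directions by section. Granule neuron, Purkinje cell and oligodendrocyte markers were lower in sum in section 1 and higher in section 2. Granule neuron markers summed to 122 against 393 CPM in section 1 and to 753 against 393 in section 2. Purkinje cell markers summed to 129 against 481 and to 520 against 200. Oligodendrocyte markers summed to 1356 against 4530 CPM in section 1 and to 7347 against 2841 in section 2. Tumor epithelium markers summed to 103 against 76.9 and to 3353 against 7894. Their part in the hypoxia and lipid differences was not tested.

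Each of the pair was then read in spots chosen by the other alone, which keeps the gene read out of the rule. Top spots by *Gpnmb* and top spots by *Spp1* shared 43 of 146 spots in section 1 (29.5% of each list) and 85 of 174 in section 2 (48.9%). *Spp1* in spots chosen by *Gpnmb* alone was 7281 CPM against 3303 in their neighbors in section 1 and 4739 against 1574 in section 2. The fitted log2 difference was 1.34 (SE 0.38, edgeR adjusted p = 0.995, unadjusted p = 0.00939). Under the alternatives it ranged from 0.91 to 1.58, and DESeq2 gave an adjusted p of 0.00578 where the other settings gave up to 1.0.

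The reverse reading was uneven. *Gpnmb* in spots chosen by *Spp1* alone was 673 CPM against 629 in section 1 and 853 against 176 in section 2. The log2 differences were 0.10 and 2.27, and the fitted value was 1.12 (SE 0.59, edgeR adjusted p = 0.9999). Spots rich in *Gpnmb* thus had more *Spp1* than their neighbors in both sections, while spots rich in *Spp1* had more *Gpnmb* than theirs in section 2, and in section 1 about the neighbors' level. That these readings differ between sections was not tested.

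Spots chosen by *Gpnmb* alone also had more *Cd68* and more of the lipid-associated genes than their neighbors in both sections. Because *Gpnmb* chose these spots, genes that go with it across spots had to follow in part. *Cd68* was 1429 against 594 CPM in section 1 and 471 against 156 in section 2, and *Fabp5* was 1071 against 356 and 452 against 177. *Csf1r* was 317 against 332 CPM in section 1 and 261 against 193 in section 2. edgeR called 0 genes, with 475 higher (2.66%) and 305 lower (1.71%) at an unadjusted p below 0.05. All 25 lipid-associated genes were higher in both sections, 18 of them with an unadjusted p below 0.05, and the list's medians were 0.95 and 1.03. Over 1 log2 unit higher in both sections were 8 of them, where 30 of all genes (0.168%) were higher and 37 (0.207%) lower. Against *Arg1*-high spots, edgeR called 0 genes, with 339 higher (1.9%) and 385 lower (2.16%) at an unadjusted p below 0.05. Of the 12 hypoxia genes, 11 were lower there in both sections (17.4% of all genes). By over 1 log2 unit 6 of them were lower, where 47 of all genes (0.263%) were lower and 14 (0.0785%) higher by that much. Against the neighbors of these spots, neuronal markers were mostly lower in both sections. They were so for 8 of 8 granule neuron genes (3 at an unadjusted p below 0.05) and 8 of 8 Purkinje cell genes. Of 8 projection neuron genes, 6 were lower (4 at an unadjusted p below 0.05). In that comparison 11 of 11 cell cycle genes were higher in both sections. Of all genes, 26.6% were lower and 31.1% higher in both. In section 1 the median spot chosen by *Gpnmb* held 47210 UMIs and its neighbors 23708. The part of these cell types and of depth in the differences was not tested. With *Spp1* alone as the rule, *Cd68* was 693 against 750 CPM in section 1 and 532 against 160 in section 2.

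Across single chosen spots, other genes went with *Gpnmb* more than with *Spp1* in section 1. Over the 146 spots, the rank correlation of *Gpnmb* was 0.86 with *Cd68*, 0.85 with *Fabp5*, 0.81 with *Mmp12* and -0.64 with the fibroblast list. That of *Spp1* was -0.27 with *Cd68* and -0.21 with *Fabp5*. The spots were chosen by the sum of the pair, which can set *Spp1* against *Gpnmb* and the genes that go with it. Over chosen and neighbor spots of section 1 together (534 spots), *Spp1* had 0.04 with *Cd68*, -0.18 with *Fabp5* and 0.15 with the macrophage list. *Gpnmb* had 0.83, 0.89 and 0.44 there. In section 2, over 174 spots, *Gpnmb* had 0.45 with *Cd68* and 0.55 with *Mmp12*, and *Spp1* had 0.34 and 0.31. With *Fabp5* both had 0.37 there, and with the macrophage list *Gpnmb* had 0.28 and *Spp1* 0.33. Over chosen and neighbor spots of section 2 together (961 spots), *Spp1* had 0.58 with *Cd68* and 0.63 with *Fabp5*, and *Gpnmb* had 0.50 and 0.42. These are descriptions over spots that share a section and a depth scale, and the 2 kinds of section 1 enter its values.

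With distance from the chosen spots, levels declined over a few steps. Only spots with *Arg1* under 500 CPM were counted, and a step is 1 spot to the next. In section 1, *Gpnmb* went from 1102 CPM in the chosen spots to 699 at 1 step, 304 at 3 steps and 109.9 at 6 steps. In section 2 it went from 939 to 278, 107 and 41.4. *Gpnmb* chose the spots at step 0, so the difference between step 0 and step 1 was set by the rule in part, and the values from 1 step outward went from 699 to 109.9 and from 278 to 41.4.

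*Cd68* went from 872 to 741 and 441 CPM (0, 1 and 6 steps) in section 1 and from 554 to 252 and 100.4 in section 2. *Fabp5* went from 631 to 456 and 150.4 CPM in section 1 and from 586 to 289 and 130.5 in section 2. The macrophage markers differed between the sections: in section 1 they went from 9584 CPM to 9301 at 1 step and 8265 at 6 steps, and in section 2 from 7104 to 4696 and 1965. Among the spots counted, macrophage markers were thus spread widely in section 1, and in section 2 they declined away from the chosen spots. The *Arg1*-high spots, left out here, held 10536.5 CPM of them in section 1 and 6198 in section 2. Whether the decline goes with distance from the *Arg1*-high spots was not tested. Tumor epithelium markers in section 2 went the other way, from 3432 CPM in the chosen spots to 4744 at 1 step and 6913 at 6 steps.

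**Figure D5:**
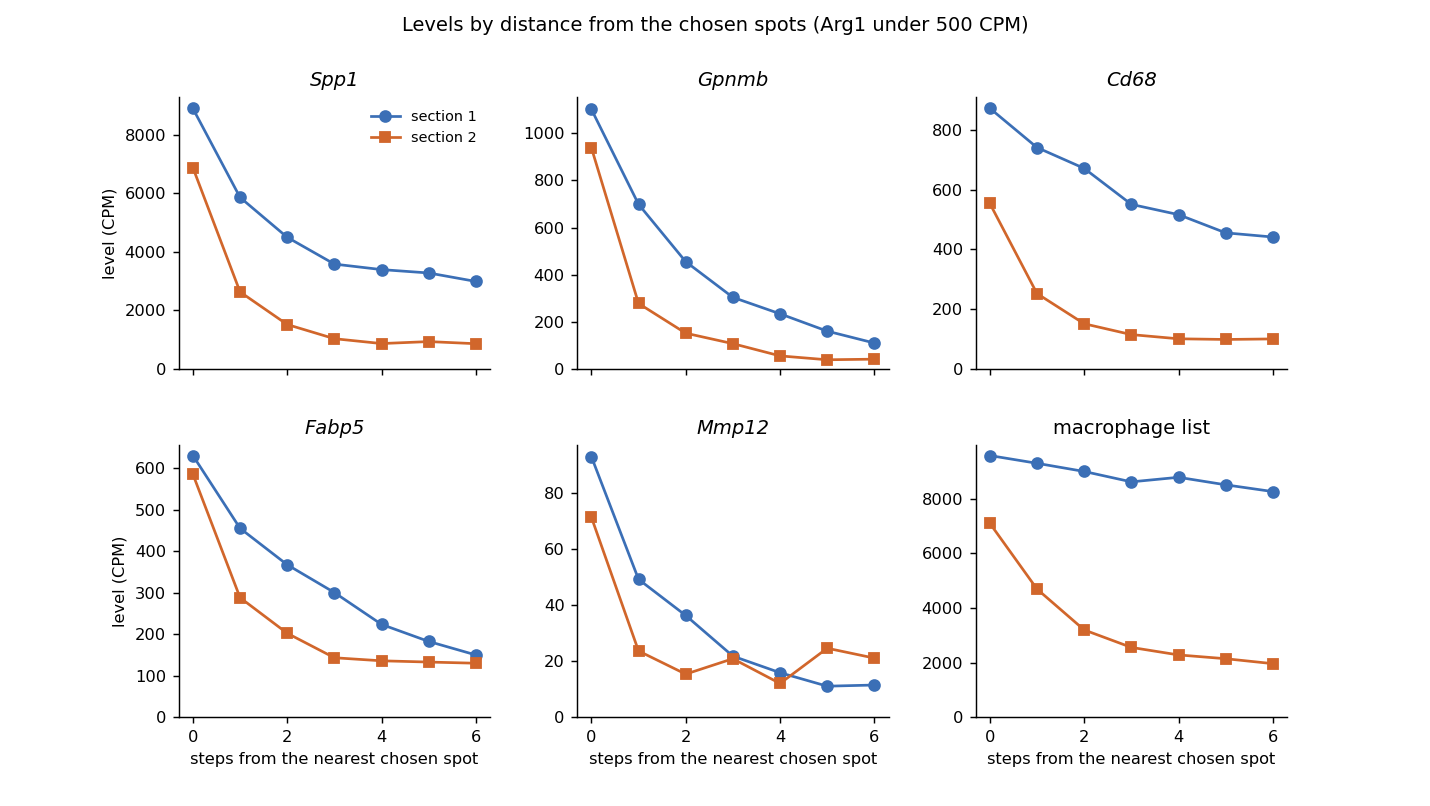
Levels in CPM of 5 genes and the summed macrophage markers by the number of steps from the nearest chosen spot (0 is the chosen spots), with section 1 in blue and section 2 in orange and axes that start at 0. *Spp1*, *Gpnmb*, *Cd68* and *Fabp5* decline in both sections, and the macrophage markers decline mainly in section 2, from 7104 to 1965.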

How the data were processed

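The 2 formalin-fixed cerebellar sections (5 µm) were profiled with the Visium CytAssist probe assay. The authors deposited, for each tissue spot, unscaled UMI counts of 19465 genes, made with Space Ranger 2.1.1 on mm10 according to the submitters' processing notes. Probes read a part of each transcript, and counts of near-identical genes (immunoglobulins, hemoglobins) could be split among them.

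Spots were chosen by the rule in the opening, and UMIs were summed by section and zone into 6 libraries. CPM uses a spot's own total. edgeR 4.0.16 in R 4.3.3 was run with TMM scaling (factors 0.938 to 1.08), filterByExpr, glmQLFit and glmQLFTest, with the section as a block and all 3 zones in 1 fit, and with Benjamini-Hochberg adjustment over 18007 genes. Section differences used scaled CPM plus 0.5. The zones of a section are parts of 1 tissue, which pairs them: edgeR's dispersion was 0.0655 when section was blocked and 0.217 otherwise. Precision is set by the 2 sections and not by depth. Intervals are at the 95% level and cover counting error only. The fit was also run on simulated data with known large changes, and 200 of 200 changed genes were recovered. Those changes were the same in both sections, so this run does not show what the fit can find in the real data.

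Of 357 genes in 35 lists of cell types and programs, 345 had probes. Named genes were 32 fixed genes, the 3 members of each list with the highest level in chosen spots, and called genes with large changes, of which there were 0. The members, lists and tests were chosen with earlier results of these data known. Alternatives were DESeq2 1.42.0, other scalings, no count filter, no block, other zones in the fit, other UMI, *Arg1* and top-percent limits, either gene alone, other neighbor reaches and each section alone. The *Gpnmb* limit of 100 CPM was added after seeing the data. Gene positions were taken from RefSeq's GRCm38.p6 annotation. Spot statistics used Python 3.11.15, numpy 2.4.6, scipy 1.17.1, pandas 2.3.3 and matplotlib 3.10.9.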

Additional observations from a re-analysis of the deposited data

How the results depend on the processing

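With 2 sections, the adjusted tests had little room, and a gene that misses the threshold is not shown to be alike between zones. Values within 1 section have no replicate. Counts of changed genes were 0 in edgeR under every alternative run, and DESeq2 called 1 gene against neighbor spots and 26 against *Arg1*-high spots. Without the section as a block, edgeR called 0, with 63 genes (neighbors) and 161 (*Arg1*-high) at an unadjusted p below 0.05 in place of 204 and 699, the block changed no call, and *Spp1* in spots chosen by *Gpnmb* differed by 1.30 and *Gpnmb* in spots chosen by *Spp1* by 0.92. With only the compared zones in the fit the unadjusted counts were 889 and 414. In DESeq2, *Spp1* in spots chosen by *Gpnmb* passed (1.34). In single sections it was 1.14 to 1.59, and *Gpnmb* in spots chosen by *Spp1* 0.10 to 2.27.

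Of 638 values of named genes against neighbors, 14 changed sign (6 genes) and 1 passed only in DESeq2, and of 551 against *Arg1*-high spots, 19 changed sign (8 genes) and 2 passed only in DESeq2. Sign changes were not counted for each section alone, although those values are among the 638 and 551. Genes on opposite sides in the 2 sections, such as *Csf1r* against neighbors, are thus not counted for that setting. The sign changes counted lay between -0.387 and 0.268 on the log2 scale. Against neighbors these were *P2ry12* (0.0679 in the top 10%, 0.0198 and 0.16 at minimums of 5000 and 10000 UMIs, 0.14 with *Arg1* under 100 CPM, 0.000216 by *Gpnmb* alone, 0.0603 and 0.0525 with neighbors within 6 or at 2 to 3 steps), *Csf1* (-0.0225 in the top 2%, -0.0889 within 1 step), *Itgb3* (-0.00281 with *Arg1* under 100 CPM, -0.0146 by *Spp1* alone) and, with *Arg1* under 100 CPM, *Il34* (0.19), *Mitf* (-0.0709) and *Tfec* (-0.25). Against *Arg1*-high spots, in the top 2% they were *Lyz2* (0.15), *Trem2* (0.27), *Abca1* (0.0805) and *Csf1* (-0.0170), by *Gpnmb* alone *Lyz2* (0.21), *Trem2* (0.0730) and *Abca1* (0.11), with *Gpnmb* of at least 100 CPM *Lyz2* (0.22), *Trem2* (0.25), *Abca1* (0.19) and *Ctsb* (0.0320), at 10000 UMIs *Lyz2* (0.0649) and *Trem2* (0.0971), and with *Arg1* under 100 CPM *C1qa* (-0.0574), *Apoe* (-0.39) and *Mitf* (-0.0462). *Lyz2* without the block (0.15) and *Apoe* in the top 10% (-5.79e-05) and by *Spp1* alone (-0.0307) did so too. The causes were not tested. Of 630 summed marker levels, 49 moved by more than the spread between sections, 25 of them when spots with little *Gpnmb* were left out.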

Other observations

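Markers of osteoclast-like cells, which share *Spp1* and *Gpnmb* expression with macrophages, were lower in sum in the chosen than in the neighbor spots of section 1 and close to them in section 2. They summed to 889 CPM in chosen and 1351 in neighbor spots of section 1 and to 137 and 109 in section 2. *Ctsk*, the cathepsin of osteoclasts, was 242 and 440.4 CPM in section 1 and 12.4 and 11.1 in section 2. Dendritic cell markers summed to 61.9 and 91.7 and to 50.7 and 51.8. Neutrophil markers summed to 92.7 and 74.6 in section 1 and to 100.2 and 69.9 in section 2. Cell cycle genes were at 765 and 785 CPM in section 1 and at 516 and 427 in section 2, and cholesterol synthesis genes, of which 8 of 12 were lower in both sections (29.1% of all genes), at 262 and 308 and at 413 and 453.

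Against *Arg1*-high spots, chemokine genes stood on both sides. *Ccl6*, read off after its values were seen, was 134 CPM in chosen and 502 in *Arg1*-high spots of section 1 and 218 and 920.1 in section 2. *Cxcl12*, a chemokine of stromal cells, was 302 against 134 in section 1 and 25.4 against 12.4 in section 2, and it was not over 1 log2 unit higher in both when the *Gpnmb*-poor spots were left out. Of 15 chemokine genes tested, 8 were lower and 4 higher in both sections, where 19.2% and 22.6% of all genes were.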
